A study of Mus musculus with 12 samples.

Results

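The endothelial and blood-brain barrier genes are 39 mouse genes chosen by name, as known products of the cells that line blood vessels or of the barrier that these cells form in brain and spinal cord. The rule that picks them uses symbols and no measured value, but the list was drawn up with earlier results of these data known, and all 39 symbols were found among the 45906 genes of the count table. All 39 also had enough counts to be tested, as did 20155 genes in all. They were measured by RNA sequencing of poly(A) RNA from the whole spinal cord of mice that were 7 months old and on a C57BL/6 background. The 12 libraries came from 4 genotypes with 3 libraries each, which were Plekhg5+/+, Plekhg5-/-, Plekhg5+/+ SOD1-G93A and Plekhg5-/- SOD1-G93A, the last called the double mutant here. Plekhg5 encodes a guanine nucleotide exchange factor linked to lower motoneuron disease, and SOD1-G93A is a human SOD1 transgene with an amino acid exchange known from familial amyotrophic lateral sclerosis. No agent was given to any group, and the promoter of the transgene and the kind of Plekhg5 allele are not given in the sources used here. The labels number the libraries of a genotype without naming the animals, so p-values measure the spread between these samples. An exact permutation test of 3 against 3 libraries cannot go below p = 0.1, so the tests given are those of a model fitted across all genes. In a whole-tissue library, fewer endothelial cells and less RNA per endothelial cell cannot be told apart.

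Endothelial cells of brain and spinal cord are sealed to each other by tight and adherens junctions, move little fluid in vesicles, and carry transporters that take up nutrients and return foreign compounds to the blood. Vascular endothelial growth factor (VEGF) and angiopoietin receptors control their growth and their tightness, and Wnt ligands from neighbouring neural cells maintain the barrier through beta-catenin and its partner Lef1. Transcription factors of the SoxF group (Sox7, Sox17 and Sox18) and of the ETS family, such as Erg, drive many endothelial genes.

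Promoter sequences are shown for the members on which the genotype comparisons turn and for which the reference table held an entry, as context for the values that follow. Of the 39 members, 25 had an entry. The sequences are from RefSeq on GRCm38.p6, run 5′ to 3′ on the strand of the gene, and end at the first base before the gene as it was counted, which leaves 167 bases for Ly6c1 and 250 for the other genes. Capitals mark matches, on either strand, to GGAAG (the core that ETS factors prefer) or ACAAT (a core of SOX sites), with CTTCC and ATTGT as their reverse complements. Kank3 (chr17:33810273-33810522, plus strand) encodes a cytoskeletal adaptor, Adgrl4 (chr3:151437632-151437881, plus strand) an adhesion G protein-coupled receptor of endothelium, and Ly6c1 (chr15:75048921-75049087, minus strand) a lipid-anchored surface protein.
Kank3: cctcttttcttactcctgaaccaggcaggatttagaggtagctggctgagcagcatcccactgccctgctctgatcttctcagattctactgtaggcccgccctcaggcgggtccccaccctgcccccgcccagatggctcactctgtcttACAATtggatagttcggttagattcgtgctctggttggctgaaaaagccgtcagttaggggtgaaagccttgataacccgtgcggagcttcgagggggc
Adgrl4: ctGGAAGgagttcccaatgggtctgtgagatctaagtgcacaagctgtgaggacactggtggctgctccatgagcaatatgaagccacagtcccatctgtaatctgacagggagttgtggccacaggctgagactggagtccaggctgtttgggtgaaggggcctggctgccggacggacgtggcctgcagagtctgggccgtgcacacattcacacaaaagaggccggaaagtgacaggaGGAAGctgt
Ly6c1: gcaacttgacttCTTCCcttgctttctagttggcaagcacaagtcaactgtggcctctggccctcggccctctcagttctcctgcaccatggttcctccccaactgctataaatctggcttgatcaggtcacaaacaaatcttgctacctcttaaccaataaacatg

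The motifs were searched on both strands in the 250 bases before each start in the reference table, a window that for Ly6c1 runs past the printed end into the gene. GGAAG was present in the windows of 17 of the 25 members (68%) and in 64.1% of all 32851 windows. ACAAT was present in 8 members (32%) against 27.7% of all windows. AGATAA, a core of GATA sites, was present in 0 members against 9.99% of all windows. ATCAAAG, bound by TCF and LEF factors, was present in 1 member (4%) against 3.21%. GTAAACA, bound by forkhead factors, was present in 1 member (4%) against 3.17%. These shares describe letters in a window only, and some matches to different motifs can overlap.

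Each library held between 30415643 and 38743628 counts assigned to genes (median 32714352). Plekhg5 was at 19.4 to 25.0 CPM (read counts normalised to a common library total) in the 6 Plekhg5+/+ libraries, with or without the transgene, and at 3.28 to 4.72 CPM in the 6 Plekhg5-/- libraries, and human SOD1 was at 4421 to 5638 CPM in the transgenic libraries and at no more than 5.47 CPM in the others, so both labels held in every library. Y-linked transcripts were present in 3 of 3 Plekhg5+/+, 2 of 3 Plekhg5-/-, 2 of 3 Plekhg5+/+ SOD1-G93A and 1 of 3 double mutant libraries. Sex was thus not balanced over the genotypes and cannot be fully told apart from them. The double mutant library with Y-linked transcripts was replicate 1. With these transcripts as a covariate in the model, 1145 in place of 1741 of all genes had an unadjusted p under 0.05 for Plekhg5 loss in SOD1-G93A. The median log2 fold change of the members in that comparison ranged from 0.25 to 0.49 over all alternatives run, this covariate among them. How many members had an unadjusted p under 0.05 with the covariate is not given here. One Plekhg5-/- library stood apart for the endothelial genes. Its replicate 1 was the lowest library of its genotype for 31 of the 39 members, and replicate 1 of the double mutant was the highest of its genotype for 28 of them. Values without these libraries stand beside the counts over the members and the lists that they move most, and omissions of this kind were chosen after the data were seen where both are left out.

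The defining endothelial markers were detected in every library, with 445 to 1023 counts for Pecam1 and 370 to 770 counts for Cdh5. On a per-length scale (CPM per kilobase of exon), the members covered a wide range in Plekhg5+/+, from 65.8 ± 11.8 (SD, n = 3) for Slc2a1 to 0.396 for Sox7. Slc2a1, the glucose transporter of the barrier, was highest, followed by Ly6a at 27.4 ± 2.6, Mfsd2a at 22.9 ± 2.23, Ly6c1 at 18.1 ± 0.529 and Tjp1 at 17.4 ± 2.46. Slc2a1, Mfsd2a and Tjp1 are also expressed by neural and other cells of the cord, so their level is not one of endothelium alone. A mean of at least 10 CPM per kilobase was reached by 8 members, 27 lay between 1 and 10, and 4 (Sox17, Lef1, Angpt2 and Sox7) were under 1. Of the 38 neighbouring pairs in this order, 30 overlapped between libraries and 8 did not. The first 3 steps, from Slc2a1 to Ly6c1, were among the separate ones, whereas Ly6c1 and Tjp1 were not separated. In raw counts, Angpt2 rested on 31 to 81 counts per library, the least of the members with values given in full.

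**Figure D1:**
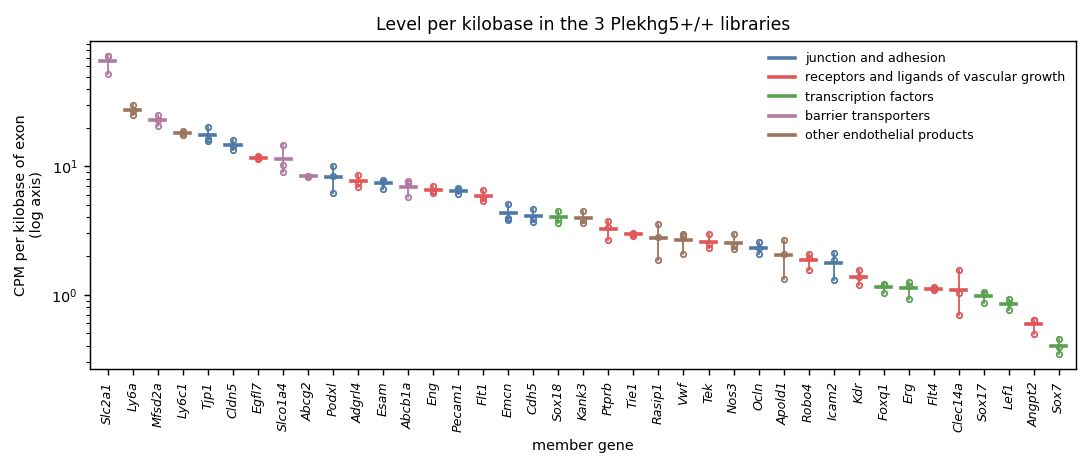
Level of each of the 39 members in Plekhg5+/+ spinal cord, in CPM per kilobase of exon on a log axis. Open circles are the 3 libraries, thin lines their range, thick bars their mean and colours the role; the order runs from Slc2a1 at 65.8 to Sox7 at 0.396, with overlap between most neighbours.

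Across the 4 genotypes the endothelial genes had lower means in the single mutants and higher means in the double mutant. The summed CPM of the 39 members was 996.5 to 1088 in Plekhg5+/+, 816 to 996.7 in Plekhg5-/-, 879.2 to 928.6 in Plekhg5+/+ SOD1-G93A and 1040 to 1227 in the double mutant. The transgenic Plekhg5+/+ sums lay below those of Plekhg5+/+ and of the double mutant, Plekhg5-/- overlapped Plekhg5+/+ at the single value of its highest library, and the double mutant overlapped Plekhg5+/+ from 1040 to 1088. Both single mutants had a mean below that of Plekhg5+/+ for 25 members (64.1%, against 35.4% of all genes tested). The double mutant had the highest mean of the 4 genotypes for 29 members (74.4% against 21.7%) and a mean above both single mutants for 36 (92.3% against 30.7%). These counts rested in part on the 2 libraries named above. Without Plekhg5-/- replicate 1 they were 18, 27 and 34 members, and without double mutant replicate 1 they were 25, 25 and 36. Without both they were 18 (30.6% of all genes), 19 (19%) and 28 (26.2%). The highest of the 12 libraries was a double mutant library for 28 members, and was double mutant replicate 1 for 22 of them. The SD within a genotype was, in the median over the members, 12.2% of the mean in Plekhg5+/+, 22.9% in Plekhg5-/-, 11% in Plekhg5+/+ SOD1-G93A and 11.8% in the double mutant, so the spread was largest in Plekhg5-/-.

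**Figure D2:**
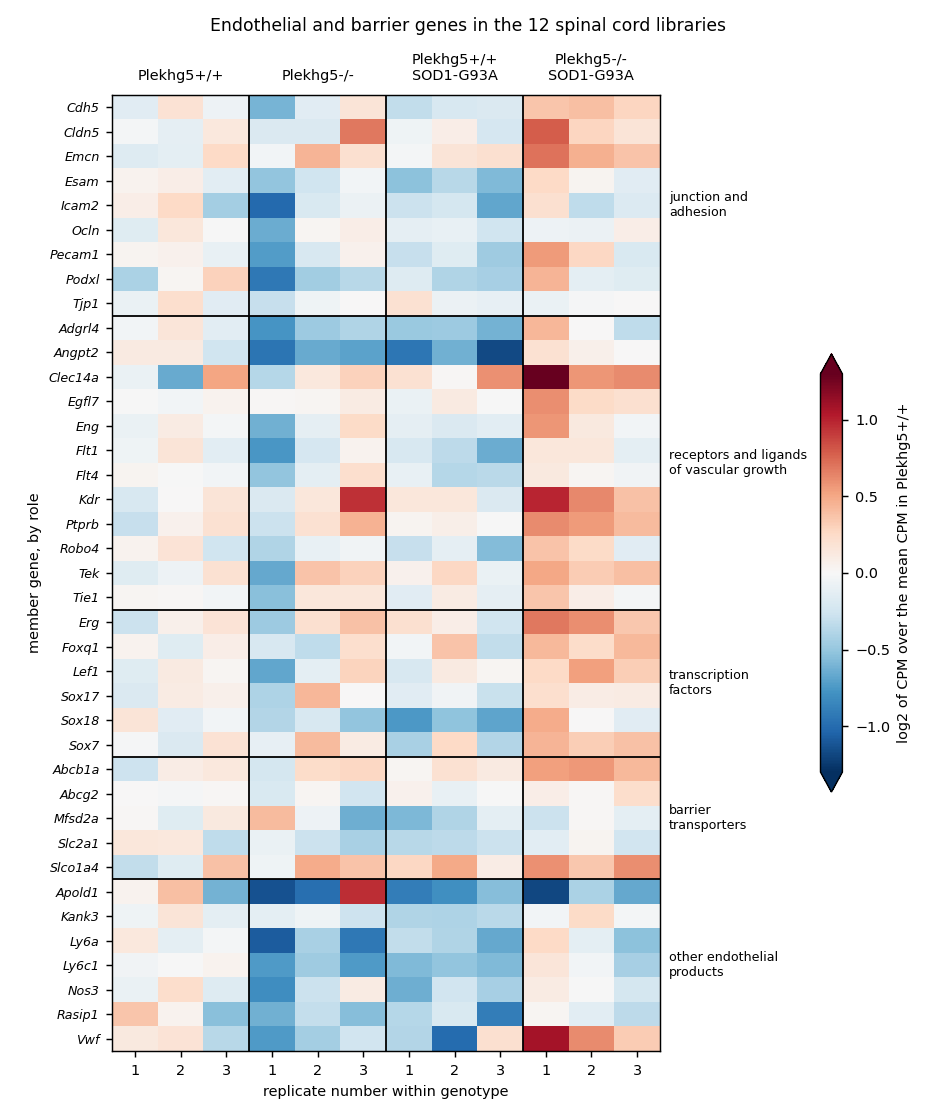
Level of the 39 members (rows, grouped by role) in each of the 12 libraries (columns), as log2 of the CPM over the mean CPM in Plekhg5+/+; blue is lower, red is higher, and values past the ends of the scale take its end colours. Most rows are blue in Plekhg5+/+ SOD1-G93A and in Plekhg5-/- replicate 1 and red in the double mutant, with Apold1 as an exception.

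The first comparison asked what the SOD1-G93A transgene did in Plekhg5+/+ mice. Angpt2 and Ly6c1 fell, the 2 members that passed the test. None rose, and the members as a whole lay below the middle of all genes, with a median log2 fold change of -0.24 over the 39 (11 positive) against -0.001 over all genes, of which 49.7% were positive. In edgeR's quasi-likelihood test 2.47% of all genes were called, 2.09% higher and 0.377% lower. At an unadjusted p under 0.05, 10 members were lower and 0 higher, where 7.51% of all genes were lower and 10.6% higher. All 3 transgenic libraries lay below all 3 Plekhg5+/+ libraries for 13 members (33.3%, against 9% of all genes), and above them for 0 (11.6%). DESeq2 called 6 members lower, namely Angpt2, Ly6c1, Sox18, Esam, Kank3 and Adgrl4. Of all 33715 genes that it tested, it called 1162, of which 790 were higher. Esam, Kank3, Sox18 and Angpt2 were drawn by the study as changed in these libraries, so their values are not independent evidence; among the other 35 members, edgeR called 1 lower (Ly6c1). The calls rested on single libraries. Neither gene was called without Plekhg5+/+ replicate 1, Plekhg5+/+ replicate 2, or replicate 1 or 3 of Plekhg5+/+ SOD1-G93A, and Ly6c1 was lost, with Angpt2 still called, without Plekhg5+/+ replicate 3 or double mutant replicate 2. Without Plekhg5-/- replicate 1 or double mutant replicate 1, which belong to neither group compared but share in the estimate of the spread, 4 members were called. Fitted with the 2 genotypes alone, 0 members were called.

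The second comparison asked what the loss of Plekhg5 did in mice carrying SOD1-G93A. No member passed the adjusted threshold in edgeR's quasi-likelihood test, in which 0.0347% of all genes were called. At an unadjusted p under 0.05, 19 members were higher and 0 lower, where 3.59% of all genes were higher and 5.05% lower. The log2 fold change was above 0 for 38 of 39, with Tjp1 as the exception, and for 47.5% of all genes, and the median was 0.40 over the members and -0.01 over all genes. All 3 double mutant libraries lay above all 3 Plekhg5+/+ SOD1-G93A libraries for 26 members (66.7% against 9.48% of all genes), and for 0 members below them (10%). DESeq2 called 4 members higher, which were the 4 drawn by the study (Esam, Kank3, Sox18 and Angpt2), and 72 of all 33715 genes that it tested, of which 32 were higher. Without double mutant replicate 1 the median was 0.31, with 38 members still above 0, and 11 members had an unadjusted p under 0.05.

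The third comparison asked about the loss of Plekhg5 without the transgene. No member was called by edgeR's quasi-likelihood test (0.0298% of all genes were), and DESeq2 called 2, Ly6c1 and Ly6a, both lower. DESeq2 called 34 of all 33715 genes that it tested, of which 10 were higher. At an unadjusted p under 0.05, 7 members were lower and 0 higher, where 2.79% of all genes were lower and 2.53% higher. The 3 Plekhg5-/- libraries lay below the 3 Plekhg5+/+ libraries for 5 members (12.8% against 3.99% of all genes), namely Ly6c1, Ly6a, Angpt2, Adgrl4 and Sox18, and above them for 0 (4.72%). The median over the members was -0.12 with 12 positive, where 52% of all genes were positive. It rested on 1 library, since it was -0.03 with 19 positive without Plekhg5-/- replicate 1 and -0.27 with 7 positive without Plekhg5-/- replicate 3, when 12 members had an unadjusted p under 0.05.

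The fourth comparison, of the transgene in Plekhg5-/- mice, again gave 0 calls in edgeR's quasi-likelihood test (0.00496% of all genes) and 1 in DESeq2, Ly6c1, which was higher. DESeq2 called 45 of all 33715 genes that it tested, of which 36 were higher. At an unadjusted p under 0.05, 18 members were higher and 0 lower, where 3.27% of all genes were higher and 2.1% lower. The median was 0.33, with 37 of 39 above 0 (48.3% of all genes), and 12 members had no overlap between the groups, with the double mutant above (30.8% against 7.25% of all genes) and 0 with it below (5.22%). Without Plekhg5-/- replicate 1 the median was 0.21, with 33 positive and 10 at an unadjusted p under 0.05, and without double mutant replicate 1 it was 0.26, with 11 at an unadjusted p under 0.05. Without both that library and double mutant replicate 1, an omission chosen after the data were seen, the median was 0.15 with 29 positive and 4 members at an unadjusted p under 0.05.

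The difference between the transgene's effects in the 2 Plekhg5 genotypes was tested as an interaction. For 38 of the 39 members the effect was more positive in Plekhg5-/- than in Plekhg5+/+, as it was for 47.4% of all genes. No member and no other gene passed the adjusted threshold in edgeR's quasi-likelihood test (0% of all genes), while DESeq2 called 95 genes in all and 6 members (Angpt2, Ly6c1, Sox18, Adgrl4, Ly6a and Esam). The median interaction was 0.47 on the log2 scale over the members and -0.01 over all genes, and 17 members had an unadjusted p under 0.05 with the effect more positive in Plekhg5-/-, where 3.87% of all genes did and 5.18% did in the other direction. It was 0.37 without Plekhg5-/- replicate 1, 0.39 without double mutant replicate 1, 0.27 without both, and 0.69 without Plekhg5-/- replicate 3, when 26 members had an unadjusted p under 0.05. The 5 comparisons share libraries and are not independent of each other. Against Plekhg5+/+ itself, which no fitted comparison addressed, the double mutant libraries lay above all 3 Plekhg5+/+ libraries for 15 members (38.5% against 9.82% of all genes) and below for 0 (7.36%). The libraries were separated in opposite directions, lower with the transgene in Plekhg5+/+ and higher with it in Plekhg5-/-, for 6 members (15.4%, against 0.397% of all genes), and the reverse held for 0 (0.327%). Without both first Plekhg5-/- libraries the count was again 6, but over fewer libraries, where 1.04% of all genes had the pattern.

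**Figure D3:**
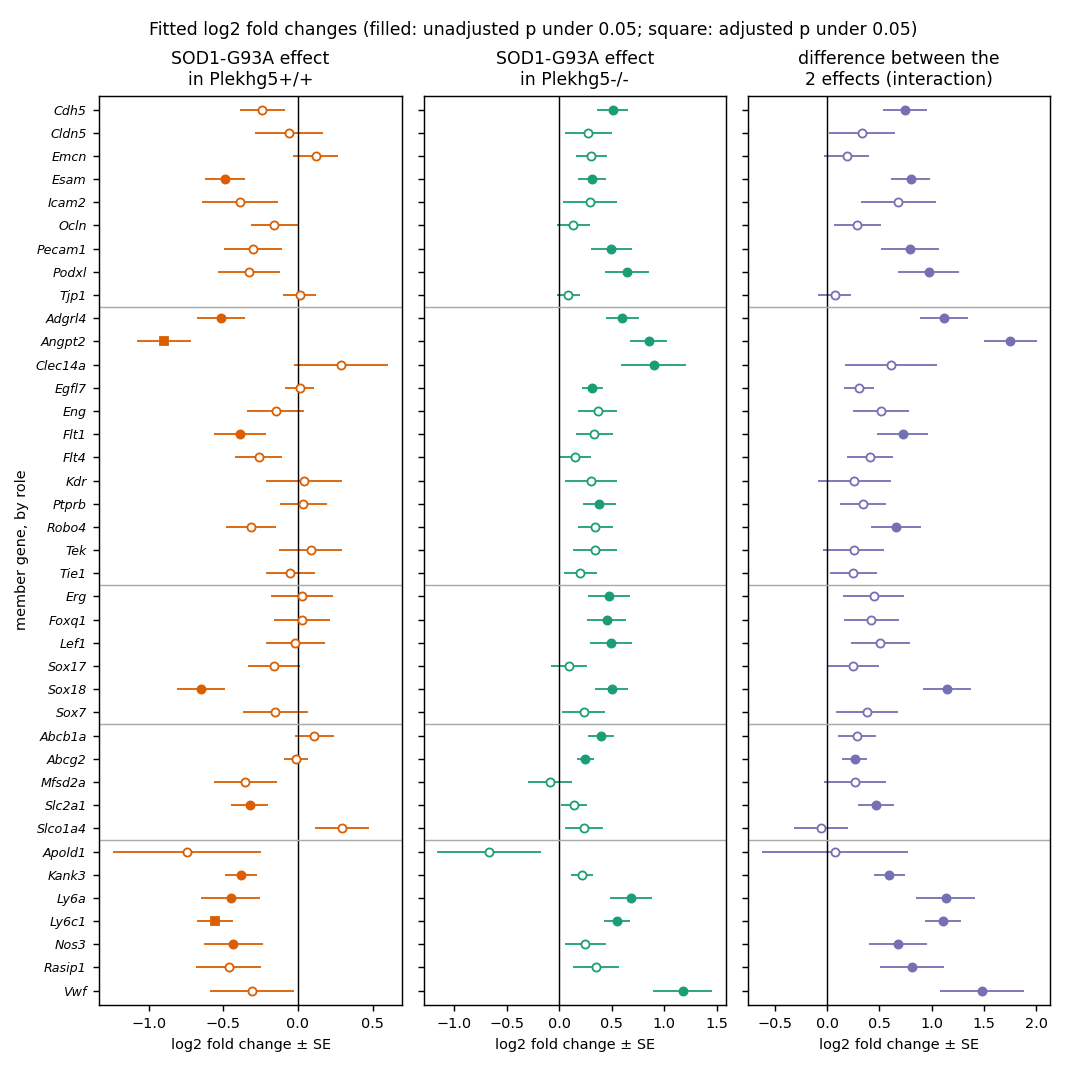
Fitted log2 fold change ± SE of the 39 members for the SOD1-G93A effect in Plekhg5+/+ (left), in Plekhg5-/- (middle) and for the difference between them (right). Filled points have an unadjusted p under 0.05, squares an adjusted p under 0.05; Angpt2 and Ly6c1 are the 2 squares, and 38 of 39 points in the right panel lie above 0.

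Among the 12 receptors and ligands of vascular growth, Angpt2 differed most between genotypes. Angpt2 (chromosome 8, 18690263 to 18741562, minus strand) encodes a ligand that endothelial cells store and release, and that opposes angiopoietin-1 at the receptor Tek in many settings. It was at 2.26, 2.27 and 1.75 CPM in Plekhg5+/+, at 1.08, 1.33 and 1.29 in Plekhg5-/-, at 1.09, 1.35 and 0.93 in Plekhg5+/+ SOD1-G93A, and at 2.41, 2.19 and 2.10 in the double mutant. Every library of either single mutant lay below every Plekhg5+/+ and every double mutant library, and the last 2 genotypes overlapped. With the transgene in Plekhg5+/+ it fell by 0.90 on the log2 scale (SE 0.181, edgeR adjusted p = 0.0257). The log2 fold change was 0.99 (SE 0.180) for Plekhg5 loss in SOD1-G93A, -0.76 (SE 0.179) for Plekhg5 loss without the transgene and 0.85 (SE 0.178) for the transgene in Plekhg5-/-, with adjusted p-values of 0.23, 0.593 and 0.344. The interaction was 1.75 (SE 0.254, unadjusted p = 1.26e-05, adjusted p = 0.235), and it stayed between 1.61 and 1.92 over the alternatives other than the DESeq2 fold-change prior, under which it was 0.87.

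Adgrl4 (chromosome 3, 151437882 to 151545081, plus strand), whose promoter is printed above, had the same order. It was at 30.5, 34.9 and 28.4 CPM in Plekhg5+/+, 18.4, 22.6 and 23.8 in Plekhg5-/-, 22.4, 22.6 and 20.5 in Plekhg5+/+ SOD1-G93A, and 42.2, 31.3 and 24.8 in the double mutant. All libraries of the single mutants were below those of Plekhg5+/+ and of the double mutant, whose replicate 3 came nearest. Its log2 fold changes were -0.52 (SE 0.161) for the transgene in Plekhg5+/+ and 0.60 (SE 0.160) in Plekhg5-/-, with adjusted p-values of 0.108 and 0.555 in edgeR's test.

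No other member of this role had both single mutants below Plekhg5+/+ without overlap, and Egfl7, Flt1 and Kdr were picked for description after their values were seen. The secreted factor Egfl7 was at 28.25, 22.01 and 21.49 CPM in the double mutant, above all other libraries (17.49 to 20.13). Its log2 fold change for Plekhg5 loss in SOD1-G93A was 0.35 (SE 0.0989, adjusted p = 0.402 in edgeR's test). Flt1, a decoy receptor for VEGF, was lower with the transgene in Plekhg5+/+ in every library (69.7, 63.5 and 51.5 CPM against 77.5, 90.7 and 73.3), without passing the adjusted threshold. Kdr, the main signalling receptor for VEGF, was at 9.16, 10.6 and 11.9 CPM in Plekhg5+/+ and at 20.9, 16.3 and 13.8 in the double mutant, which lay above all Plekhg5+/+ libraries. In Plekhg5-/- it ranged from 9.28 to 20.4, so that 1 library of that genotype was nearly as high as the highest double mutant library. The angiopoietin receptor Tek, its relative Tie1, the VEGF-C receptor Flt4, the coreceptor Eng, the phosphatase Ptprb, the guidance receptor Robo4 and the lectin-like Clec14a completed the role. Over all 12, 12 of 12 had a positive log2 fold change for Plekhg5 loss in SOD1-G93A (0.20 to 0.99, median 0.47) and a positive interaction (0.25 to 1.75). For the transgene in Plekhg5+/+, 7 of the 12 were negative, and the median was -0.10. The median interaction of the role was 0.46, and without both first Plekhg5-/- libraries it was 0.14, with 9 of 12 positive.

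Among the 9 junction and adhesion genes, Esam and Cdh5 carried the smallest p-values for Plekhg5 loss in SOD1-G93A and for the interaction. Esam (chromosome 9, 37528089 to 37538319, plus strand) encodes an immunoglobulin-like adhesion molecule of endothelial junctions. It was at 14.1, 14.5 and 12.4 CPM in Plekhg5+/+, 9.63, 11.4 and 13.4 in Plekhg5-/-, 9.44, 10.7 and 9.24 in Plekhg5+/+ SOD1-G93A, and 16.4, 14.1 and 12.4 in the double mutant. The transgenic Plekhg5+/+ libraries lay below all libraries of Plekhg5+/+ and of the double mutant, whereas Plekhg5-/- overlapped with each of the other genotypes. Its log2 fold change was -0.49 (SE 0.132, adjusted p = 0.0725) for the transgene in Plekhg5+/+ and 0.54 (SE 0.132, adjusted p = 0.402) for Plekhg5 loss in SOD1-G93A. DESeq2 called both differences.

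Cdh5 (chromosome 8, 104101613 to 104144504, plus strand) is VE-cadherin, the adhesive receptor of endothelial adherens junctions. It was at 14.9, 18.7 and 15.7 CPM in Plekhg5+/+, 10.8, 14.8 and 18.5 in Plekhg5-/-, 13.2, 14.2 and 14.4 in Plekhg5+/+ SOD1-G93A, and 21.1, 21.6 and 19.9 in the double mutant. Every double mutant library was above each of the other 9, and the log2 fold change for Plekhg5 loss in SOD1-G93A was 0.58 (SE 0.151, adjusted p = 0.402). Fitted with those 2 genotypes alone, that difference passed the threshold in edgeR.

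Of the remaining junction genes, Tjp1, the scaffold of tight junctions, showed least. It was at 141, 174.5 and 135.2 CPM in Plekhg5+/+, 121.7, 144.1 and 150.7 in Plekhg5-/-, 172.5, 142.1 and 139.8 in Plekhg5+/+ SOD1-G93A and 141.4, 149.1 and 151 in the double mutant, with overlap between all genotypes. Cldn5, the claudin that seals the barrier and picked here after its values were seen, was at 20.3, 19.04 and 22.8 CPM in Plekhg5+/+ and at 35.6, 25.1 and 23.3 in the double mutant, which lay above it without overlap, but Plekhg5-/- reached 33.2 in replicate 3. Ocln, a tight junction protein, the platelet and endothelial adhesion molecule Pecam1, the leukocyte ligand Icam2 and the sialomucins Podxl and Emcn made up the rest. Over the role, 8 of 9 log2 fold changes were positive for Plekhg5 loss in SOD1-G93A (-0.04 to 0.58, median 0.41), and 6 of 9 genes did not overlap there (9.48% of all genes). The median interaction was 0.68, and 0.27 without both first Plekhg5-/- libraries, with 7 of 9 positive.

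Among the 6 transcription factors, Sox18 stood out from Sox17 and Sox7. Sox18 (chromosome 2, 181669837 to 181671640, minus strand) was at 7.28, 5.89 and 6.34 CPM in Plekhg5+/+, 5.003, 5.63 and 4.54 in Plekhg5-/-, 3.88, 4.52 and 4.05 in Plekhg5+/+ SOD1-G93A, and 9.07, 6.53 and 5.88 in the double mutant. Every library of both single mutants was below every library of the other genotypes, as for Angpt2. The log2 fold change was -0.65 (SE 0.162, adjusted p = 0.0564) for the transgene in Plekhg5+/+ and 0.78 (SE 0.161, adjusted p = 0.262) for Plekhg5 loss in SOD1-G93A. The first lay near the threshold, with adjusted p-values between 0.0106 and 0.206 over the alternatives. For Sox17 and Sox7 the corresponding log2 fold changes with the transgene in Plekhg5+/+ were -0.16 and -0.15, and no test of the difference between the 3 genes was made. For 4 of the 6 factors all double mutant libraries lay above all Plekhg5+/+ libraries, as they did for 9.82% of all genes. These were Sox7, Erg, Lef1 and Foxq1, a forkhead factor found in barrier endothelium. All 6 factors had a positive log2 fold change for Plekhg5 loss in SOD1-G93A, of 0.30 to 0.78.

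Of the 5 barrier transporters, none passed the test in any comparison in edgeR's fit or in DESeq2, and 3 had an unadjusted p under 0.05 in at least 1 comparison. Slc2a1 (chromosome 4, 119108745 to 119137330, plus strand) was at 195, 194.6 and 140.2 CPM in Plekhg5+/+, 166.5, 146 and 131.9 in Plekhg5-/-, 137.7, 139.5 and 146 in Plekhg5+/+ SOD1-G93A, and 160.3, 181.6 and 148.5 in the double mutant. The double mutant lay above the transgenic Plekhg5+/+ libraries, and all other pairs of genotypes overlapped. Mfsd2a (chromosome 4, 122946850 to 122961194, minus strand), a lipid transporter that restrains vesicle transport, was at 49.9, 44.3 and 53.8 CPM in Plekhg5+/+, 65.6, 47 and 31.7 in Plekhg5-/-, 33, 37.6 and 45.2 in Plekhg5+/+ SOD1-G93A, and 40.8, 49.7 and 45.3 in the double mutant. Its genotypes all overlapped, and the spread within Plekhg5-/- was wider than any difference between means. The efflux pump Abcb1a, picked after its values were seen, was at 54.4, 55.8 and 50.6 CPM in the double mutant, above all other libraries (31.3 to 45.3). Its log2 fold change for Plekhg5 loss in SOD1-G93A was 0.40 (SE 0.128, adjusted p = 0.455). For the anion transporter Slco1a4, the interaction was -0.06, the only negative one of the 39, and for the efflux pump Abcg2 it was 0.26. Over the role the median interaction was 0.26, against 0.68 for the junction genes, 0.46 for the receptors and ligands, 0.43 for the transcription factors and 0.81 for the other endothelial products, and these differences between roles were not tested. This order is given for all libraries only. The medians of the junction genes and of the receptors and ligands fell without both first Plekhg5-/- libraries, as given above. Slc2a1, Mfsd2a, Tie1 and Tek lie on chromosome 4, as Plekhg5 does, at 29.1 to 57.2 Mb from it, and sequence around the Plekhg5 allele that came with it cannot be told apart from its loss there.

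The 7 other endothelial products held the second called gene. Ly6c1 (chromosome 15, 75044018 to 75048920, minus strand) was at 31, 31.8 and 32.9 CPM in Plekhg5+/+, 19.2, 23.1 and 19.2 in Plekhg5-/-, 21.4, 22.3 and 21.4 in Plekhg5+/+ SOD1-G93A, and 35.5, 31.1 and 23.6 in the double mutant. Both single mutants were below all Plekhg5+/+ and double mutant libraries. With the transgene in Plekhg5+/+ it fell by 0.56 on the log2 scale (SE 0.122, edgeR adjusted p = 0.0361). For Plekhg5 loss without the transgene the log2 fold change was -0.64 (SE 0.123, adjusted p = 0.253), and the interaction was 1.11 (SE 0.173, unadjusted p = 2.67e-05, adjusted p = 0.235).

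Ly6a (chromosome 15, 74994877 to 74998031, minus strand), which encodes the stem cell antigen Sca-1 that is also present on endothelium, was at 30.3, 25.1 and 26.9 CPM in Plekhg5+/+, 13, 20.5 and 14.4 in Plekhg5-/-, 22, 20.9 and 17.3 in Plekhg5+/+ SOD1-G93A, and 32.9, 25.1 and 18.9 in the double mutant. Both single mutants were below Plekhg5+/+ without overlap, and the double mutant overlapped with all 3 other genotypes. Reads that map to several places had been divided among them, which left Ly6c1 with fractional counts in 6 libraries and Ly6a in 8, and values of these genes carry that uncertainty. The near copy Ly6c2 had log2 fold changes of -0.20, 0.31, -0.48 and 0.59 in the first 4 comparisons, and passed the threshold in none. Shared reads also touched Abcb1a, Slco1a4 and Abcg2, in 11, 10 and 6 libraries.

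Kank3 (chromosome 17, 33810523 to 33822920, plus strand) was at 12.2, 14.3 and 11.6 CPM in Plekhg5+/+, 11.6, 12.2 and 10.6 in Plekhg5-/-, 9.66, 9.64 and 9.96 in Plekhg5+/+ SOD1-G93A, and 12.4, 15.1 and 12.5 in the double mutant. The transgenic Plekhg5+/+ libraries were the 3 lowest of the 12, and lay close to each other. The log2 fold change was -0.38 (SE 0.105, adjusted p = 0.0756) for the transgene in Plekhg5+/+ and 0.45 (SE 0.105, adjusted p = 0.402) for Plekhg5 loss in SOD1-G93A.

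Vwf (chromosome 6, 125552935 to 125686679, plus strand), the clotting protein of endothelial storage granules, was at 26.2, 27.1 and 18.7 CPM in Plekhg5+/+, 14.4, 17.6 and 20.1 in Plekhg5-/-, 18.4, 12 and 27.6 in Plekhg5+/+ SOD1-G93A, and 50.6, 36.8 and 30.2 in the double mutant. Every double mutant library was above the other 9, and the log2 fold change for the transgene in Plekhg5-/- was 1.17 (SE 0.284, adjusted p = 0.498), the largest of the 39. Nos3, the endothelial nitric oxide synthase, and Rasip1, a regulator of vessel lumens, had negative log2 fold changes in both single mutants and positive ones for Plekhg5 loss in SOD1-G93A. Apold1, an early-response gene of endothelium, ranged widely, with 2.93 to 12.9 CPM and the widest SEs of the 39, and its mean was highest in Plekhg5+/+.

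**Figure D4:**
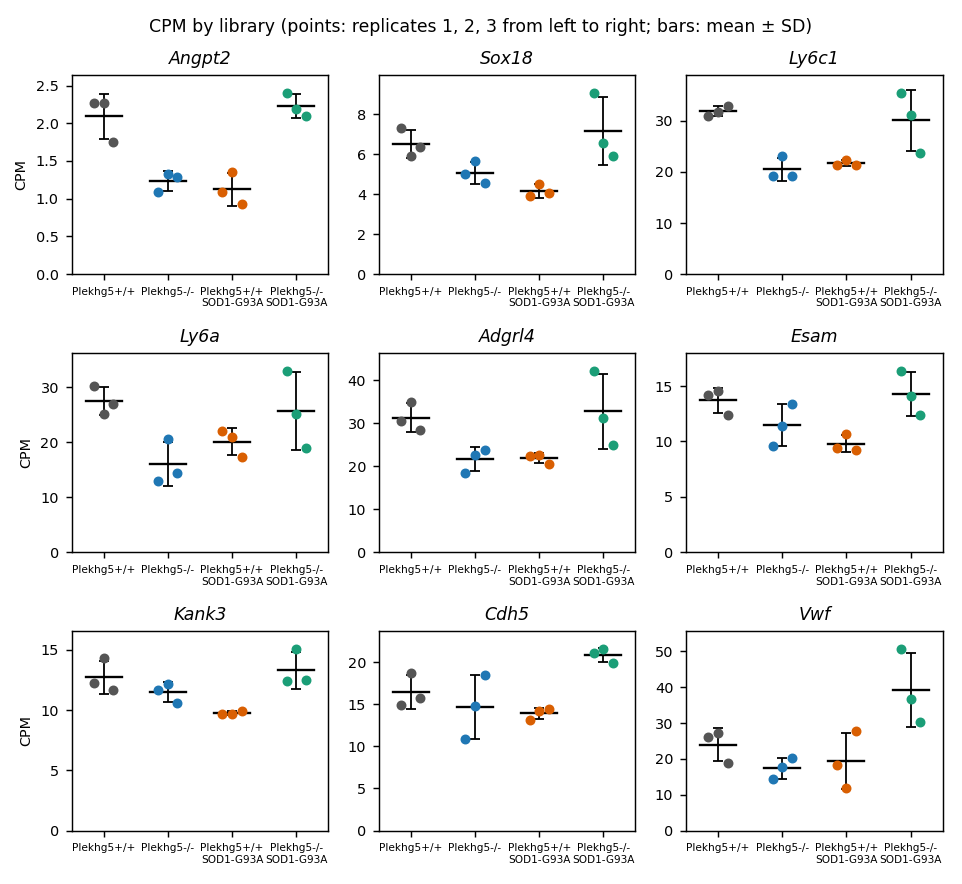
CPM of 9 members in every library of the 4 genotypes; points are replicates 1, 2 and 3 from left to right, black bars mean ± SD, and each axis starts at 0. Angpt2, Sox18, Ly6c1 and Adgrl4 are lower in all libraries of both single mutants than in any Plekhg5+/+ or double mutant library, while Cdh5 and Vwf are highest in the 3 double mutant libraries.

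Lists of genes that act with the members, chosen by name, gave few calls. Some genes stand in more than 1 list, such as Ackr1, Lrg1 and Vcam1 in the venous list and in that of endothelial activation. Of the 25 further pan-endothelial genes, 0 were called in any comparison by edgeR's test, DESeq2 called Cd34 higher and Nostrin lower in the first, and 8 were higher and 0 lower at an unadjusted p under 0.05 for Plekhg5 loss in SOD1-G93A. Their log2 fold changes there were positive for 22 of 25, with a median of 0.25 against 0.40 for the members and -0.01 for all genes, and the smallest p-values were those of She, an adaptor protein (0.47), and Foxc1. The interaction was positive for 21 of the 25 (median 0.28), and for 19 (median 0.17) without both first Plekhg5-/- libraries. Without double mutant replicate 1, 3 in place of 8 had an unadjusted p under 0.05 for Plekhg5 loss in SOD1-G93A. With the transgene in Plekhg5+/+ their median was -0.03, with 3 higher and 1 lower at an unadjusted p under 0.05. Nostrin, a partner of Nos3, was at -1.11 (adjusted p = 0.0639), and Cd34, a sialomucin of endothelium and progenitor cells, was at 0.88 (adjusted p = 0.0659), opposite in sign to Nostrin. The 8 venous genes had negative log2 fold changes for Plekhg5 loss without the transgene in 8 of 8 and a positive interaction in 8 of 8 (median 0.68), without a call in edgeR's test, and 5 of the 8 had an unadjusted p under 0.05 in the former. Without Plekhg5-/- replicate 1 that number was 1, with 7 of 8 negative, and the median interaction was 0.45 without both first Plekhg5-/- libraries. The vein-identity factor Nr2f2 had a log2 fold change of 0.39 for the transgene in Plekhg5-/- (adjusted p = 0.49). The chemokine-binding receptor Ackr1 had one of -0.47 for the transgene in Plekhg5+/+ (adjusted p = 0.064), which DESeq2 called. The 9 arterial genes had a median interaction of 0.03, with 5 of 9 positive, and no call by either tool, with 1 at an unadjusted p under 0.05.

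The signalling lists were nearer to all genes. Among the 16 genes of the barrier's Wnt signalling, the ligands Wnt7b and Wnt7a rose with the transgene in Plekhg5+/+, by 0.61 (SE 0.121, edgeR adjusted p = 0.0238) and 0.73 (SE 0.148, adjusted p = 0.0257) on the log2 scale, and no other gene of the list passed in edgeR's test. DESeq2 also called Apcdd1, a Wnt target, higher there, and Wnt7b for the interaction (-0.68), and the median of the list was 0.08. Of the 13 VEGF, angiopoietin and neuropilin partners, 0 were called, with 2 higher and 2 lower at an unadjusted p under 0.05 in that comparison (median 0.02), and Vegfa, the main VEGF ligand, had the smallest p (log2 fold change -0.38) and was called by DESeq2. Of the 11 Notch genes, 0 were called, with 1 lower at an unadjusted p under 0.05 (median -0.08) and 0 called by DESeq2.

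Of the 16 further barrier transport genes, the lactate transporter Slc16a1 rose with the transgene in Plekhg5+/+ by 0.41 on the log2 scale (SE 0.0867, edgeR adjusted p = 0.0311), and the list's median was 0.05. Of the 11 tested genes of endothelial activation and leak, Ccn1, an early-response matrix protein, rose there by 1.80 (SE 0.363, adjusted p = 0.0278), and the others were not called by edgeR. DESeq2 called Ccn1 higher and Sele and Ackr1 lower. For Plekhg5 loss without the transgene, 7 of these 11 had an unadjusted p under 0.05 and a negative log2 fold change, where 2.79% of all genes did. Among them were the adhesion molecules Sele and Icam1, whose edgeR adjusted p-values were 0.711 and 0.836, and DESeq2 called Sele. The log2 fold change of Sele was -4.85 with a wide SE of 1.19. The venous list, which shares Ackr1, Lrg1 and Vcam1, rested in this comparison largely on Plekhg5-/- replicate 1, as given above.

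Markers of other cell types moved with the genotypes as well, and their part in the endothelial values was not tested. The 3 Schwann cell markers Prx, Pmp22 and Ncmap, of which Pmp22 is also expressed by other cells, were likewise highest in the double mutant. Their summed CPM was 150.1 to 263.6 in Plekhg5+/+, 156.2 to 190.6 in Plekhg5-/-, 164.8 to 231.5 in Plekhg5+/+ SOD1-G93A and 267.7 to 360.3 in the double mutant, and their median interaction was 1.24, with 3 of 3 positive, 3 of 3 at an unadjusted p under 0.05, 0 called by edgeR's test and 1 (Ncmap) by DESeq2. All 3 were detected well above 0, with 2671 counts over the 12 libraries for Ncmap, the least. In Plekhg5+/+ replicate 3 the median of the Schwann list was at -0.43 (log2) against the Plekhg5+/+ mean, while the median of the endothelial members there was at -0.02. In Plekhg5-/- replicate 1 both were low, at -0.42 for the Schwann list and -0.50 for the members. The summed CPM of the Schwann list in that library was, however, 190.6, the highest of its genotype. In double mutant replicate 1 both were above 0, at 0.45 and 0.37. Within the double mutant the 2 lists ran in opposite order over replicates 1, 2 and 3. The Schwann medians there were 0.45, 0.49 and 0.74, and the member medians 0.37, 0.13 and 0.01.

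The 7 perivascular and meningeal fibroblast markers summed to 163.9 to 267.1 CPM in Plekhg5+/+, 149.3 to 261.2 in Plekhg5-/-, 180 to 283.1 in Plekhg5+/+ SOD1-G93A and 242 to 439.2 in the double mutant. Col1a1, a collagen of these cells, had a log2 fold change of 0.78 for Plekhg5 loss in SOD1-G93A (adjusted p = 0.402), which DESeq2 called. The list's median was 0.91 for the transgene in Plekhg5-/-, with 7 of 7 positive, 4 at an unadjusted p under 0.05, 0 called by edgeR and 2 by DESeq2 (Col1a1 and Col1a2). Its median interaction was 0.79, with 6 of 7 positive, beside 0.47 for the members. The 11 pericyte markers summed to 230.9 to 260.8, 202.2 to 284.7, 236.2 to 264.4 and 298.1 to 321.4 CPM in the same order of genotypes. The pericyte sums of the double mutant lay above those of every other library, so a higher level there was not particular to the endothelial members. For Plekhg5 loss in SOD1-G93A, 9 of 11 pericyte markers were positive (median 0.24). For the transgene in Plekhg5-/-, 10 of 11 were (median 0.20). Unlike the endothelial members, 10 of 11 also had a positive log2 fold change with the transgene in Plekhg5+/+ (median 0.21). Their median interaction was 0.04, although the contrast between the 2 lists was not tested.

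The 12 microglial markers summed to 482.5 to 560.8 CPM in Plekhg5+/+ and to 935.8 to 1788 in Plekhg5+/+ SOD1-G93A, where 11 of 12 rose in edgeR's test, against 690.7 to 771.2 in the double mutant. Of the 9 astrocyte markers, 4 rose in the same comparison, and of the 6 smooth muscle markers Tagln and Mylk rose. The 5 red blood cell genes, which report blood left in the tissue, summed to 698.5 to 1228 CPM in Plekhg5+/+, 574.6 to 697.2 in Plekhg5-/-, 954.8 to 2071 in Plekhg5+/+ SOD1-G93A and 574.1 to 976.5 in the double mutant, an order unlike that of the endothelial members. The 7 oligodendrocyte markers had medians of 0.07 and -0.13 in the first 2 comparisons. For the transgene in Plekhg5-/- their median was -0.20, with 0 of 7 positive and 3 lower at an unadjusted p under 0.05, and the median interaction was -0.27. Their summed CPM in Plekhg5-/- replicate 1, the library with the low endothelial values, was 31690, against 24400 and 24110 in the other Plekhg5-/- libraries. In the first 2 comparisons the 7 neuronal markers had medians of -0.15 and 0.14, and the 6 motoneuron markers -0.34 and 0.24, with no call for these 3 lists in edgeR's test, while DESeq2 called Nefl, Nefm and Chat lower in the first. Of the 5 T lymphocyte markers 3 could be tested (Cd4, Cd8a and Trac), and Cd3e was near 0 with 33.2 counts over all 12 libraries.

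**Figure D5:**
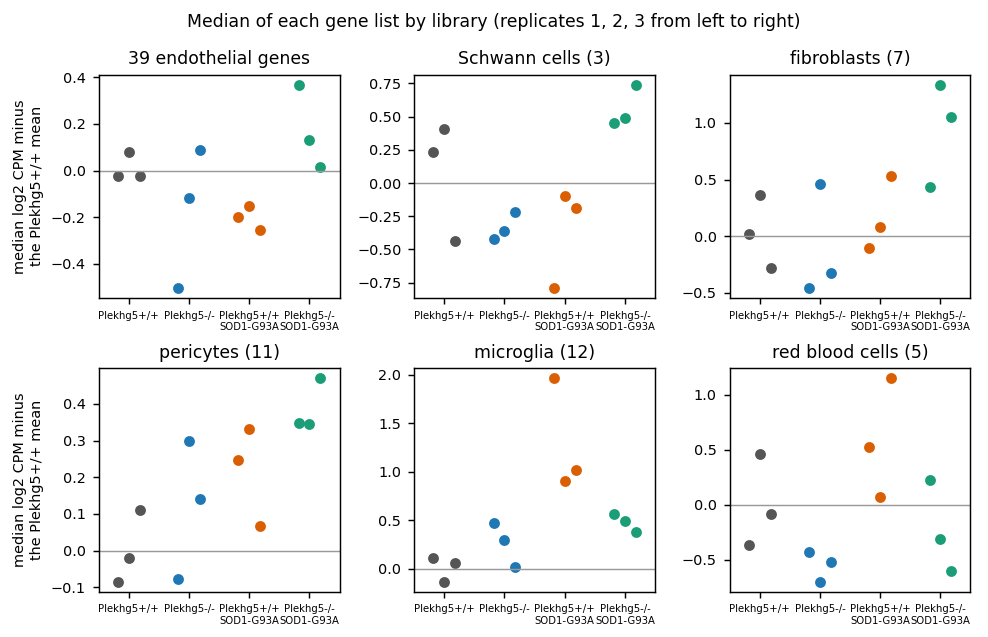
Median over a list's genes of log2 CPM minus the Plekhg5+/+ mean, for each library (replicates 1, 2 and 3 from left to right), for the 39 members and for 5 lists of cell type markers with their number of genes. The member median reaches 0.37 in double mutant replicate 1 and -0.50 in Plekhg5-/- replicate 1, pericyte medians lie at 0.34 to 0.47 in the double mutant, and the microglial list is highest in Plekhg5+/+ SOD1-G93A.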

How the data were processed

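RNA from 12 mouse spinal cord samples was sequenced and the deposited values are estimated counts per gene, made by the authors by demultiplexing with bcl2fastq 2.20.0.422, trimming with Cutadapt 2.4, aligning with STAR 2.7.2b to GRCm38.p6 plus the human SOD1 cDNA, and counting with featureCounts 1.6.4 for a reversely stranded kit, in which multi-mapping reads count as fractions. Here counts were rounded to whole numbers, genes with few counts were removed with filterByExpr, and TMM factors were applied. Libraries held 30415643 to 38743628 counts, which limits precision for low genes such as Angpt2. The genotypes were compared with edgeR 4.0.16 (limma 3.58.1, R 4.3.3) by a quasi-likelihood test in 1 model over all 12 libraries, with Benjamini-Hochberg adjustment over 20155 genes and a threshold of 0.05. DESeq2 1.42.0, other scalings and filters, a Y-linked covariate, a replicate block and omission of each library were alternatives. Figures were drawn with matplotlib 3.10.9 in Python 3.11.15.

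Described in full were members called in any comparison, the 4 members drawn in a heat map of the study, those with the smallest p (6 in each of the first 2 comparisons, 3 in each other) and the 5 highest per kilobase; any other was chosen after its values were seen. The members and gene lists were chosen with earlier results of these data known. A gene of a marker list is not reported here, and values of that list are over its other genes.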

Additional observations from a re-analysis of the deposited data

Results flagged for a closer look

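For 6 members the libraries separated in opposite directions with SOD1-G93A in the 2 Plekhg5 genotypes. Every transgenic library lay below every library without the transgene in Plekhg5+/+, and above every one in Plekhg5-/-. Not every single effect had an unadjusted p under 0.05 in edgeR's test. Cdh5 was at -0.24 with the transgene in Plekhg5+/+ (unadjusted p = 0.141). Kank3 was at 0.21 with it in Plekhg5-/- (unadjusted p = 0.0629). The difference between the effects, as a log2 interaction, was 1.75 for Angpt2, 1.15 for Sox18, 1.12 for Adgrl4, 1.11 for Ly6c1, 0.75 for Cdh5 and 0.59 for Kank3. These members were picked because their libraries separate in this way, which all but fixes the sign and a small p of the interaction, so its p-values are a description. None passed the adjusted threshold in edgeR's test of the interaction, and DESeq2 called Angpt2, Sox18, Adgrl4 and Ly6c1. Over all genes tested, 0.397% had such a pattern. Angpt2, Sox18 and Kank3 are among the members that the study drew as changed in these libraries. The Schwann cell markers also had a positive interaction, with a median of 1.24, and their part in these values was not tested.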

How the results depend on the processing

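The number of members called depended on the tool. With the transgene in Plekhg5+/+ it was 2, against 6 with DESeq2 and 6 with its fold-change prior, 0 with only the 2 genotypes fitted, 0 to 4 with 1 library left out, 5 without both first Plekhg5-/- libraries (chosen after seeing the data) and 1 among the 35 members not drawn by the study (likewise). For Plekhg5 loss in SOD1-G93A it was 0, against 4 with DESeq2, 5 with the prior and 1 with 2 genotypes, and the median was 0.25 with the prior. For Plekhg5 loss without the transgene it was 0, against 2 with DESeq2, 1 with the prior and 0 to 1 with 1 library left out, and the median ranged from -0.27 to -0.03. For the transgene in Plekhg5-/- it was 0, against 1 with DESeq2 and 1 with the prior, and the median was 0.15 without both first libraries. For the interaction it was 0, against 1 with no filter on low counts, 6 with DESeq2, 6 with the prior and 0 to 2 with 1 library left out, and the median was 0.28 with the prior, 0.27 without both first libraries and 0.37 to 0.69 with 1 left out. The cause of these differences was not tested, other than that leaving out libraries or genotypes leaves fewer samples. Over all genes the transgene in Plekhg5+/+ gave 498 calls, 1162 with DESeq2, 1199 with the prior, 3 with 2 genotypes and 2 to 771 with 1 library left out. For the other comparisons in the same order, DESeq2 and the prior gave 72 and 112 against 7, 34 and 32 against 6, 45 and 41 against 1, and 95 and 114 against 0. Libraries with the same replicate number did not deviate together in every pair (correlations -0.109 to 0.318). With the number as a replicate block, 3 members were called with the transgene in Plekhg5+/+ (Sox18 added) and 0 in each other comparison, and the medians were -0.24, 0.41, -0.14, 0.33 and 0.45. For Angpt2, Ly6c1, Sox18, Esam, Kank3, Adgrl4, Cdh5, Ly6a and Vwf, in the comparisons where their unadjusted p was under 0.05, no direction reversed under the alternatives run. A reversal was unlikely beforehand, since these cases were picked by their p and the alternatives use mostly the same libraries. The absence of reversals is thus a description and no independent support. Depth limits the members with the fewest counts, such as Angpt2 with 31 to 81 counts per library.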
